A study of Mus musculus with 3 samples.

Results

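The first assembled sequence beside each mouse centromere was examined as the 1 kb bins from 3000001 to 3500000 of chromosomes 1 to 19, in the coordinates of the mm9 build. The set was defined by position alone and holds 9500 bins. A read of any library fell in 6302 of them, out of 2285014 bins with a read over the genome. The 500 kb that follow on the same chromosome, up to 4000000, served for comparison, and 7852 of those 9500 bins held a read. No library held a read below 3000001 on these chromosomes.

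Different states of histone H3 were mapped by chromatin immunoprecipitation followed by sequencing (ChIP-seq), with 1 library per antibody. They were symmetric dimethylation of arginine 2 (H3R2me2s), that mark together with trimethylation of lysine 4 (H3R2me2sK4me3, here the combined mark), and H3K4me3 alone. All 3 libraries came from pro-B cells, which are early B-lineage cells. The cells carried the RAG2-/- genotype, which removes a subunit of the antigen receptor recombinase, and had been transformed with Abelson virus, which keeps them growing. The strain is spelled C57BL/7 in the labels, and culture was in RPMI1640 with fetal bovine serum. Antibodies for both arginine states were made in the laboratory and the H3K4me3 antibody was bought. Whether the culture was 1 clone was not stated, and no input library was analysed here. The cell type was not checked against markers, because the files list positions and no gene names.

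In the mouse each of these chromosomes has its centromere at one end, embedded in long arrays of satellite repeats that are packed as heterochromatin. Genome builds represent most of those arrays as a gap, so the first assembled bases are the edge of the chromosome arm. H3K4me3 marks the promoters of active and poised genes, and H3R2me2s has been described at promoters together with it. Sequence that occurs more than once in the genome can gather reads from several places, or lose them, depending on how an aligner treats such reads. The sources used here do not give how such reads were treated.

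The H3R2me2s library held 6923765 reads, that of the combined mark 7128852 and that of H3K4me3 13898471. Of these, 21953, 24954 and 49644 lay in the first 500 kb of the 19 chromosomes, which is 0.317%, 0.350% and 0.357% of each library. A bin was called enriched at 15, 16 and 25 reads or more in that order, at least 4 times the mean of each library. Those means were 3.03, 3.12 and 6.08 reads per bin. A Poisson bound set the limits of 15 and 16, so the shallower libraries had to reach a higher multiple of their mean than H3K4me3. Levels are given as reads scaled to the total of their library (CPM) or as multiples of the library's background, the mean of bins that have no enriched bin within 5 kb. Background was 2.35, 1.86 and 2.98 reads per bin. On the CPM scale the background of H3R2me2s was 1.59 times that of H3K4me3, and that of the combined mark 1.22 times, so equal CPM and equal multiples of background are different statements. Intervals are exact 95% intervals that cover counting error only, over reads or, for shares of bins, over bins. They treat each read or bin as independent. Reads copied by PCR cannot be told from independent molecules, and enriched bins often lie side by side, so the intervals can be too narrow. No p-value was computed, because no antibody had a second library and chromosomes of 1 library are not replicates.

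Sequence nearest the centromere was thinly covered. The share of bins with a read was 36.1% in the first 50 kb, taken over the 19 chromosomes, and 40.5% in the second 50 kb. It then rose through 53.4%, 65.7% and 69.1% to lie between 76.5% and 82.8% from 250 to 500 kb. Steps of the following 500 kb lay between 74.5% and 90.1%. Coverage was lower in the first than in the next 500 kb on 13 chromosomes and higher on 6, and the median chromosome had a read in 359 of its first 500 bins and in 433 of the next. Some of these differences were small. The 6 include chromosome 14, with 7 against 1 such bins, and chromosome 2, with 471 against 468. The 13 include chromosome 8, with 398 against 401.

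Chromosomes differed widely in this coverage. Chromosome 11 had a read in 494 of its first 500 bins, chromosome 17 in 473 and chromosome 2 in 471. Chromosome 4 had 176 such bins and chromosome 16 had 80, against 459 and 423 in their next 500 kb. On chromosome 14 only 7 bins held a read, with 3, 2 and 3 reads in the H3R2me2s, combined and H3K4me3 libraries, and the next 500 kb held 0, 1 and 0. Chromosome 14 therefore contributed nothing measurable to what follows. A count of 0 reads allows up to 3 by counting error.

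**Figure D1:**
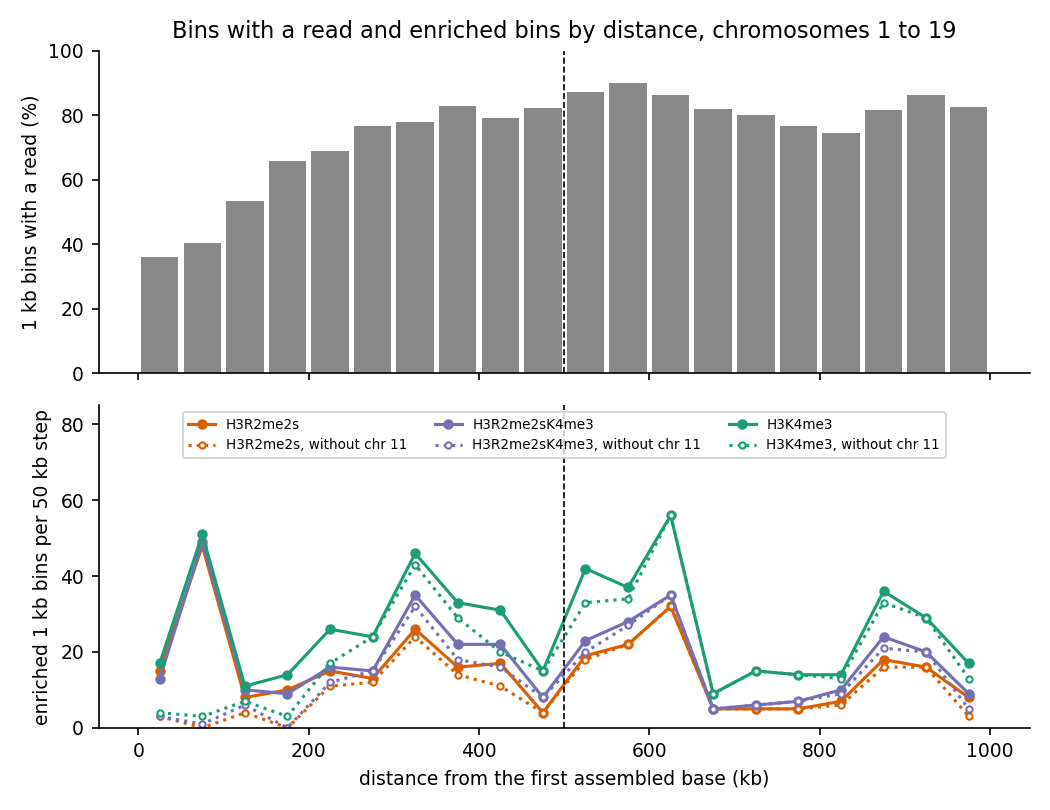
The upper panel plots the share of 1 kb bins with a read in any library, in %, by 50 kb steps from the first assembled base, summed over chromosomes 1 to 19. The lower panel plots the number of enriched bins per step in each library, with all chromosomes (solid) and without chromosome 11 (dotted), and the dashed line marks 500 kb. Coverage climbs from 36.1% to about the level of the next 500 kb, and the early peak of enriched bins is absent from the dotted lines.

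Summed over chromosomes, each library had somewhat fewer reads in the first than in the next 500 kb. H3R2me2s had 21953 reads against 26002, a ratio of 0.844 (0.829 to 0.860). The combined mark had 24954 against 29378, a ratio of 0.849 (0.835 to 0.864). H3K4me3 had 49644 against 57508, a ratio of 0.863 (0.853 to 0.874). The 3 ratios lie close together, and their intervals overlap. Chromosome 11 carried much of the first 500 kb, and without it the ratios were 0.687 (0.674 to 0.701), 0.681 (0.668 to 0.694) and 0.682 (0.673 to 0.692).

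The sums hide large differences between chromosomes in both directions. For H3K4me3 the ratio of first to next 500 kb ran from 0.0383 to 3.87, and its interval lay above 1 on 8 chromosomes and below 1 on 9. H3R2me2s ran from 0.0953 to 2.93, with 5 chromosomes above and 10 below by their intervals. The combined mark ran from 0.0628 to 3.20, with 7 above and 9 below.

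Chromosomes 10, 11 and 9 had the highest ratios. Chromosome 10 held 1392 H3R2me2s reads, 1506 of the combined mark and 3068 H3K4me3 reads in its first 500 kb, against 729, 611 and 792 in the next. Chromosome 11 held 5335, 6284 and 13114, against 1822, 1965 and 3983. Chromosome 9 held 949, 1351 and 2497, against 555, 476 and 764. In each of these the first 500 kb was the fuller in all 3 libraries. No bin was enriched in the next 500 kb of chromosomes 10 and 9. Per bin with a read, H3K4me3 in their first 500 kb stood at 2.22 and 2.53 times background. Over all chromosomes it stood at 2.64, and at 2.11 without chromosome 11.

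Chromosomes 16, 4 and 13 lay at the other end. Chromosome 16 held 169, 150 and 203 reads in its first 500 kb, against 1773, 2388 and 5294 in the next. Chromosome 4 held 241, 188 and 369, against 2219, 2671 and 5748. Chromosome 13 held 255, 225 and 551, against 1674, 2091 and 4388. Their first 500 kb held fewer reads in every library, and chromosomes 16 and 4 also had few bins with a read.

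On 4 chromosomes the libraries lay on opposite sides of 1. H3R2me2s was lower in the first than in the next 500 kb of chromosome 6, at a ratio of 0.664 (0.601 to 0.734), while H3K4me3 was higher at 1.5 (1.38 to 1.62). On chromosome 12 the ratio was 0.804 (0.753 to 0.860) for H3R2me2s, 1.22 (1.14 to 1.30) for the combined mark and 1.21 (1.16 to 1.27) for H3K4me3. On chromosome 2 it was 0.932 (0.878 to 0.990), 1.13 (1.07 to 1.2) and 1.12 (1.08 to 1.17). Chromosome 8 went the other way, with 1.05 (0.980 to 1.13) for H3R2me2s, 0.918 (0.861 to 0.979) for the combined mark and 0.969 (0.926 to 1.01) for H3K4me3. Only the combined mark's interval excluded 1 there, whereas on chromosomes 6, 12 and 2 the H3R2me2s interval lay below 1 and that of H3K4me3 above it. Chromosome 6 had a read in 265 first and 440 next bins, and chromosome 12 in 359 and 487. Per bin with a read, H3R2me2s was higher in the first 500 kb of both, at 1.05 against 0.954 and 1.88 against 1.73 times background. H3K4me3 was too, at 1.94 against 0.780 and 3.90 against 2.38. The split stayed on chromosome 2, at 1.87 against 2.02 for H3R2me2s and 3.77 against 3.38 for H3K4me3, and on chromosome 8.

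**Figure D2:**
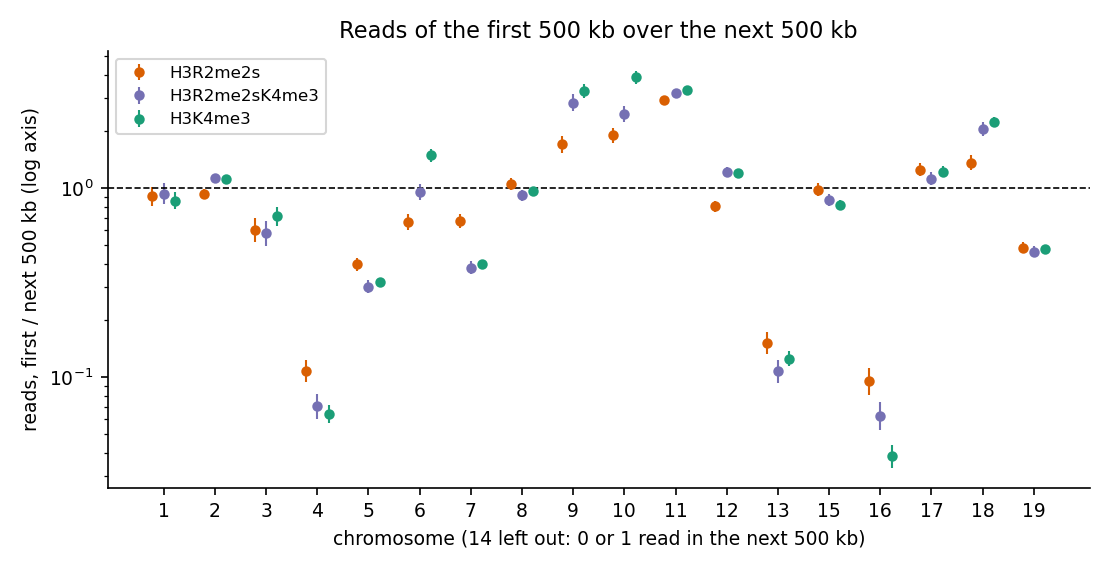
Points give the reads of the first 500 kb over those of the next 500 kb for each chromosome and library on a log axis, and bars are exact 95% intervals. Chromosomes 9, 10, 11, 17 and 18 lie above 1 in all 3 libraries, and chromosomes 4, 13 and 16 lie lowest, down to 0.0383 for H3K4me3 on chromosome 16.

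Among bins with a read, the mean level near the centromere was slightly above that of the next 500 kb with chromosome 11 and below it without. Per such bin, H3R2me2s stood at 1.48 times background in the first and 1.41 in the next 500 kb. The combined mark stood at 2.13 and 2.01, and H3K4me3 at 2.64 and 2.46. Without chromosome 11 the order turned, with 1.22 against 1.39 for H3R2me2s, 1.73 against 2.00 for the combined mark and 2.11 against 2.44 for H3K4me3. In bins more than 5 kb from an enriched bin, the first 500 kb lay below the genome's background, at 0.935, 0.911 and 0.885 of it for H3R2me2s, the combined mark and H3K4me3. The next 500 kb lay at 1.01, 1.02 and 0.932.

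Among bins with a read, enriched bins were more frequent in the first 500 kb than over the genome. The excess of this share over the next 500 kb lay on chromosome 11. H3R2me2s was called in 172 of the 6302 bins with a read, or 2.73% (2.34 to 3.16), where 1.23% of such bins were called over the genome. The combined mark was called in 199, or 3.16% (2.74 to 3.62), against 1.45% over the genome. H3K4me3 was called in 268, or 4.25% (3.77 to 4.78), against 2.45%. In the next 500 kb 137, 167 and 269 of 7852 bins with a read were called, or 1.74%, 2.13% and 3.43%. The H3K4me3 counts of 268 and 269 were thus nearly equal, and the H3K4me3 shares differed through the number of bins with a read. Without chromosome 11 the shares were 1.43%, 1.91% and 2.84% in the first 500 kb and 1.74%, 2.10% and 3.38% in the next. The leading stretch chr11:3000001-3105000 was set apart after its values were seen. Without it alone the first 500 kb had 1.74%, 2.21% and 3.27%, near the values of the next 500 kb.

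Bins called in any of the 3 libraries numbered 273, or 4.33% against 2.55% over the genome. All 3 libraries called 158 bins, and 1.05% of bins were called in all 3 over the genome. Every one of the 199 combined-mark bins was also called for H3K4me3, 100% (98.2 to 100), beside 99.4% in the next 500 kb and 99.1% over the genome. Of the 172 H3R2me2s bins, 167 were, or 97.1% (93.3 to 99.0), against 93.0% over the genome. In the other direction, 62.3% (56.2 to 68.1) of the H3K4me3 bins were called for H3R2me2s and 74.3% for the combined mark. Those shares fell to 49.1% and 67.3% without chromosome 11, beside 49.1% and 61.7% in the next 500 kb and 46.8% and 58.6% over the genome.

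The distance from the first assembled base to the first enriched bin varied from chromosome to chromosome. It was 1 kb on chromosome 11, 5 kb on chromosome 18 and 30 kb on chromosome 9. Chromosomes 17 and 10 followed at 83 and 133 kb. Between 178 and 281 kb lay chromosomes 15, 2, 8, 12, 7 and 19. Chromosomes 6 and 5 came at 336 and 340 kb, and chromosomes 13 and 4 reached it only at 476 and 499 kb. No bin was called on chromosomes 1, 3, 14 and 16. Chromosomes 1 and 3 had 397 and 340 bins with a read, and their H3K4me3 levels per such bin were 0.619 and 0.500 times background.

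Merging enriched bins no more than 1 kb apart gave 79 blocks in the first and 84 in the next 500 kb, each set covering 280 kb. The median width was 3 kb in both. The widest block was 54 kb in the first and 11 kb in the next 500 kb. All 3 libraries called 45 of the 79 blocks, H3K4me3 alone called 20, and 2 had no H3K4me3 call. In the next 500 kb these counts were 59, 18 and 1 of 84. Median levels of the blocks were 5.95, 13.0 and 22.2 times background for H3R2me2s, the combined mark and H3K4me3, and 7.36, 18.8 and 30.6 in the next 500 kb.

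Gene names can be given only as an order along the chromosome, from the RefSeq table of the GRCm38 build, whose coordinates differ from those of the files. Which block lies at which gene was not analysed here. The first protein-coding genes listed were Sfi1, whose product binds centrin, then Gm51877 and Eif4enif1 on chromosome 11. On chromosome 10 they were 9230019H11Rik, H60c and Ppp1r14c, and on chromosome 9 Alkbh8, Cwf19l2 and Gucy1a2. On chromosome 12 they were Rab10, Kif3c and Asxl2, on chromosome 8 Insr, Arhgef18 and Pex11g, and on chromosome 19 Ighmbp2, Mrpl21 and Cpt1a. Insr encodes the insulin receptor and Cpt1a the liver form of carnitine palmitoyltransferase. Among chromosomes with no enriched bin, chromosome 1 opens with Xkr4, Rp1 and Sox17, chromosome 3 with Hnf4g and chromosome 16 with the olfactory receptor gene Olfr161.

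Apart from the 54 kb block, the strongest blocks had 1 profile, with most signal for H3K4me3, nearly as much CPM for the combined mark and well under that for H3R2me2s. The block chr10:3360001-3369000 held 259 H3R2me2s reads, 548 of the combined mark and 1399 H3K4me3 reads. Its levels were 12.2, 32.7 and 52.2 times background, and H3R2me2s reached 0.372 of the H3K4me3 CPM while the combined mark reached 0.764. The 6 kb block chr12:3424001-3430000 held 251, 626 and 1234 reads, with CPM ratios of 0.408 and 0.989. Both blocks stood highest for H3K4me3 and lowest for H3R2me2s.

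A pair of blocks on chromosome 11 outside its wide stretch looked alike. At chr11:3188001-3195000 there were 250, 579 and 1237 reads, with CPM ratios to H3K4me3 of 0.406 for H3R2me2s and 0.913 for the combined mark. At chr11:3434001-3441000 there were 235, 517 and 1168, with ratios of 0.404 and 0.863. The profile of these ordinary blocks was therefore also present on chromosome 11.

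Blocks on other chromosomes gave the same order. The read counts were 196, 503 and 1092 at chr12:3306001-3312000 and 202, 448 and 1086 at chr19:3321001-3327000. They were 178, 485 and 1023 at chr8:3352001-3357000 and 192, 437 and 885 at chr18:3335001-3340000. H3R2me2s stood between 0.349 and 0.435 of the H3K4me3 CPM in these 4 blocks, and the combined mark between 0.804 and 0.963. The narrow block chr9:3403001-3406000 had the highest levels of any block of the first 500 kb in every library, at 27.6, 78.1 and 96.2 times background, from 195, 436 and 860 reads.

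The strongest blocks of the next 500 kb were of this kind too. The block chr2:3630001-3636000 held 328, 769 and 1645 reads, with H3R2me2s at 0.400 and the combined mark at 0.911 of the H3K4me3 CPM. At chr5:3800001-3806000 the reads were 237, 518 and 1309 and the ratios 0.363 and 0.772. The third was the distal 4 kb of a block that straddles the border of the windows, chr4:3499001-3504000. Those 4 kb held 212, 478 and 1105 reads, at ratios of 0.385 and 0.843.

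Over the 78 blocks with at least 30 reads in H3R2me2s and H3K4me3 together, the ratio of H3R2me2s to H3K4me3 in CPM had a median of 0.410, with quartiles of 0.347 and 0.482. It was 0.393 over 83 such blocks of the next 500 kb. For the combined mark the medians were 0.791 and 0.772. Among these blocks of the first 500 kb, H3R2me2s exceeded H3K4me3 in CPM in 5, in 2 of them with an interval above 1. It did so in 0 of the 83 blocks of the next. The combined mark exceeded H3K4me3 in 7 and in 4 blocks, with no interval above 1.

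**Figure D3:**
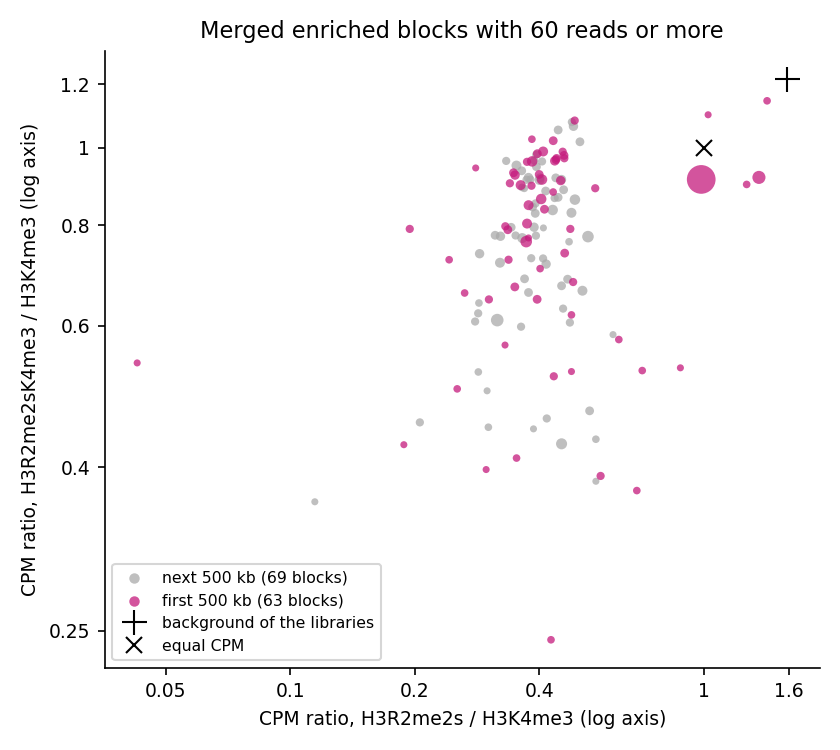
Each point is a merged enriched block with 60 reads or more, placed by its CPM ratio of H3R2me2s to H3K4me3 and of the combined mark to H3K4me3, both on log axes, with point area growing with block width. The plus marks the ratio of the library backgrounds and the cross equal CPM. Most blocks of both windows lie near 0.4 on the horizontal axis, and a few blocks of the first 500 kb, the 54 kb block among them, lie near or beyond 1.

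The blocks at the ends of these ranges were mostly small. Blocks were ordered by the interval bound nearest to 1, among those with at least 30 reads in the 2 libraries compared. The bin chr11:3287001-3288000 came first for H3R2me2s over H3K4me3, with 17, 7 and 13 reads and a ratio of 2.63 (1.2 to 5.88). The 12 kb block chr11:3037001-3049000 held far more reads, 337, 235 and 499, and its ratio was 1.36 (1.18 to 1.56). The intervals of both lay above 1. So did that of chr12:3445001-3446000, which fell below the 30 reads, with 16, 10 and 11 reads and a ratio of 2.92 (1.27 to 6.96). The next 500 kb also held such a bin below 30 reads, chr12:3587001-3588000, with 16, 8 and 11 reads and the same ratio and interval. Next in the order came the block chr9:3035001-3037000, with 53, 44 and 75 reads and 1.42 (0.979 to 2.04).

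At the low end, the bin chr17:3314001-3315000 held 1, 13 and 47 reads, a ratio of H3R2me2s to H3K4me3 of 0.0427 (0.00106 to 0.250). The block chr6:3347001-3350000 held 31, 130 and 320 reads, at 0.194 (0.130 to 0.282), and chr8:3467001-3469000 held 24, 74 and 199, at 0.242 (0.152 to 0.371). All 3 showed the combined mark at a higher CPM than H3R2me2s.

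For the combined mark against H3K4me3, the first blocks in the same order had ratios close to 1. The block chr11:3307001-3310000 held 136, 311 and 561 reads, a ratio of 1.08 (0.938 to 1.24), and chr17:3113001-3117000 held 125, 304 and 581, a ratio of 1.02 (0.885 to 1.17). Small blocks with fewer reads reached higher ratios with wider intervals, such as chr9:3035001-3037000 at 1.14 (0.770 to 1.68). At the low end, again with at least 30 reads, lay small blocks. At chr19:3440001-3442000 the reads were 17, 10 and 80 and the ratio 0.244 (0.113 to 0.472), at chr8:3327001-3328000 they were 10, 3 and 36 and 0.162 (0.0320 to 0.514), and at chr5:3489001-3490000 they were 4, 3 and 30 and 0.195 (0.0381 to 0.627). H3K4me3 had the most reads in each of them.

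The widest block, chr11:3051001-3105000, departed from this order. It held 2189 H3R2me2s reads, 2092 of the combined mark and 4468 H3K4me3 reads, which is 316, 293 and 321 CPM. H3R2me2s thus stood at 0.983 (0.934 to 1.04) of the H3K4me3 CPM, an interval that holds 1, and the combined mark at 0.913 (0.866 to 0.962). On the background scale the levels were 17.2, 20.8 and 27.8.

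The 54 kb were not of one kind, and a division into parts was chosen after the bins had been seen. The first 41 kb, chr11:3051001-3092000, formed a plateau. It held 1654, 1249 and 2539 reads, at 17.1, 16.4 and 20.8 times background. Its bins ran from 10 through a median of 39 to 81 reads for H3R2me2s, from 12 through 30 to 49 for the combined mark and from 9 through 59 to 104 for H3K4me3. The coefficient of variation over the 41 bins was 33.4%, 27.1% and 28.4%, where counting error at those means would give 15.7%, 18.1% and 12.7%.

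Heights on the plateau were near one another but not equal within counting error on either scale. On the background scale H3R2me2s reached 0.824 (0.774 to 0.877) of H3K4me3 and the combined mark 0.787 (0.735 to 0.843). In CPM, H3R2me2s stood above H3K4me3 at 1.31 (1.23 to 1.39), while the combined mark at 0.959 (0.896 to 1.03) had an interval that holds 1. The highest of the 3 values was at most 1.5 times the lowest, the limit used here for equal height, in 27 of the 41 bins on the background scale and in 22 by CPM.

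Past the plateau the ordinary order of the libraries returned in a pair of narrow peaks. At chr11:3092001-3095000 there were 158, 255 and 587 reads, at 22.4, 45.7 and 65.7 times background. The 6 kb that follow held 178, 143 and 365 reads, at 12.6, 12.8 and 20.4. At chr11:3101001-3104000 there were 183, 421 and 896, at 25.9, 75.4 and 100.3 times background, and H3R2me2s stood at 0.410 (0.348 to 0.481) of the H3K4me3 CPM. This last peak matched the median block in that ratio and was about as high for H3K4me3 as the narrow block of chromosome 9.

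Toward the centromere from the plateau lay the 12 kb block chr11:3037001-3049000. Its levels were 11.9, 10.5 and 14 times background. They differed by no more than 1.33 times, and in CPM by 1.48 times with H3R2me2s the highest. The 2 kb block chr11:3033001-3035000 before it stood at 8.71, 8.06 and 10.9 times background. Over the leading stretch of chromosome 11, H3R2me2s had the highest CPM of the 3 libraries in 43 of 67 enriched bins and H3K4me3 in 15. In the other 206 enriched bins of the first 500 kb these counts were 4 and 164. On the background scale the order within the leading stretch turned, with H3K4me3 highest in 52 of the 67 bins and H3R2me2s in 7.

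**Figure D4:**
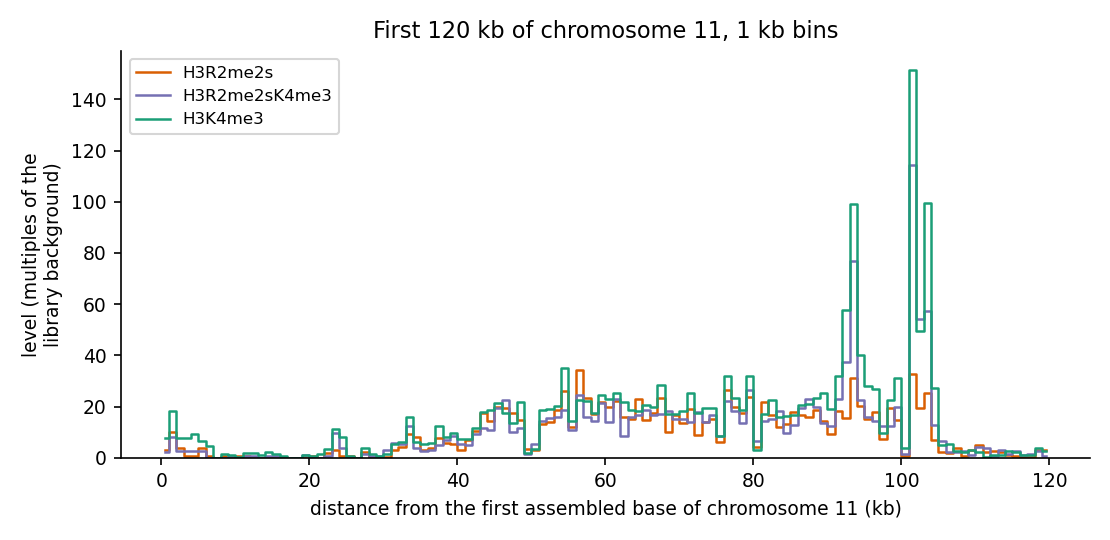
Lines give the level of each library in 1 kb bins, in multiples of its background, over the first 120 kb of chromosome 11 by distance from the first assembled base. From about 51 to 92 kb the 3 lines run close together, at mean levels of 17.1, 16.4 and 20.8 with a few dips. At 92 to 104 kb H3K4me3 rises far above H3R2me2s in a pair of peaks.

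Equal height was next counted over all enriched bins. By CPM it was met in 33 of the 273 bins called in any library of the first 500 kb, or 12.1% (8.47 to 16.6). In the next 500 kb it was met in 8 of 274, or 2.92% (1.27 to 5.67), and over the genome in 2187 of 58280, or 3.75%. On the background scale the shares were 11.7% (8.16 to 16.1), 0.730% and 0.839%. The share in the first 500 kb thus lay above the others on both scales.

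Low counts blur such a comparison, so it was repeated over bins with 60 reads or more in the 3 libraries together, on the background scale. Equal height was then met in 31 of 216 bins, or 14.4% (9.96 to 19.7), in 1 of 201 in the next 500 kb and in 0.361% of 39858 over the genome. The leading stretch of chromosome 11 held 29 of the 31 bins, at 47.5% (34.6 to 60.7) of its 61, and the other 2 lay on chromosome 9. Without that stretch the share was 1.29%, from 2 of 155 bins. The genome held 144 such bins, and 21.5% of them lay in the first 500 kb, which held 0.542% of the enriched bins with 60 reads or more.

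Beside chromosome 11, levels near one another were seen in a narrow block of chromosome 9 and a single bin of chromosome 18, both close to the start. The block chr9:3035001-3037000 stood at 11.3, 11.8 and 12.6 times background. The bin chr18:3005001-3006000 held 28, 31 and 55 reads, at 4.04, 4.35 and 3.96 CPM, which are 11.9, 16.7 and 18.5 times background. Equal height on the chromosome 18 bin was thus met by CPM and narrowly missed on the background scale. The enriched bin chr9:3030001-3031000 stood at 5.10, 6.45 and 11.1 times background. Its highest value was 2.17 times the lowest on that scale and 1.41 times by CPM.

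Reads at repeated positions were then counted, as reads that share chromosome, strand and start with an earlier read of the same library. In the first 500 kb they made up 5.46% (5.16 to 5.77) of H3R2me2s reads, 3.25% (3.03 to 3.48) of the combined mark's and 8.0% (7.76 to 8.24) of those of H3K4me3. The next 500 kb had 5.4%, 2.93% (2.74 to 3.13) and 7.28% (7.07 to 7.5). Over the genome the shares were 5.22%, 2.64% and 6.20%. The libraries differ in depth, and with each thinned to the reads of the shallowest the H3K4me3 share of the first 500 kb was 4.33%, below that of H3R2me2s. The difference between the windows was thus clear of its counting intervals for H3K4me3 alone.

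The shares were also taken separately in enriched and in other bins. In bins enriched in any of the 3 libraries, repeats made up 6.24%, 4.69% and 12.2% in the first 500 kb, 6.17%, 4.36% and 11.7% in the next and 6.11%, 4.30% and 11.9% over the genome. In all other bins they made up 5.05%, 1.53% and 1.46% in the first 500 kb, and 5.15%, 1.69% and 1.61% in the next. Within each kind of bin the windows and the genome lay close together.

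**Figure D5:**
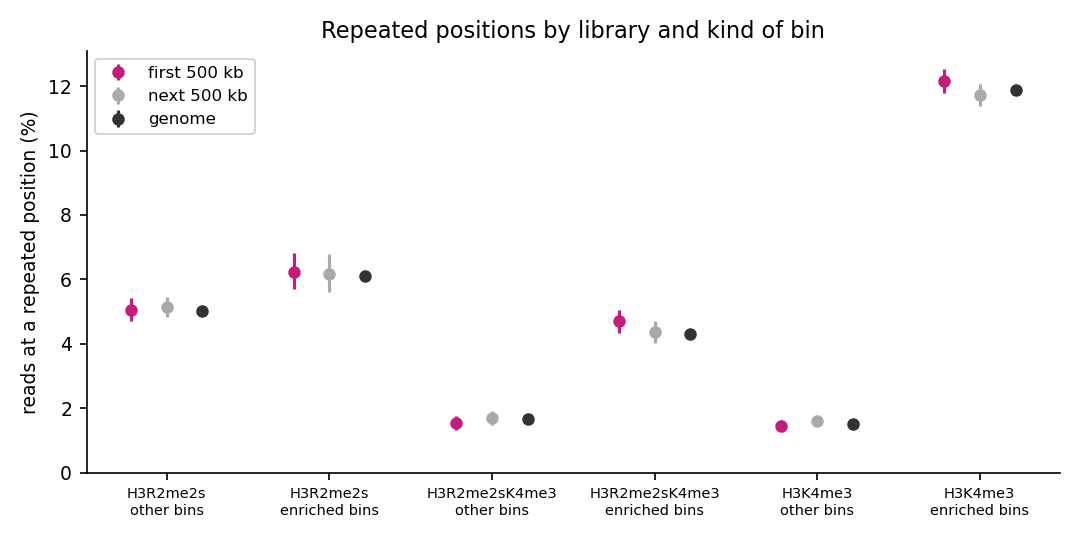
Points give the percentage of reads at a repeated position in each library, in bins enriched in any library and in all other bins, for the first 500 kb, the next 500 kb and the genome, with exact 95% intervals. The kind of bin separates the H3K4me3 values, 1.46% against 12.2% in the first 500 kb, and the windows within a kind lie close together.

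No pile of reads at 1 position stood out. The highest number at 1 position and strand in the first 500 kb was 4 in each library of the arginine antibodies and 6 in that of H3K4me3. Positions with 5 reads or more numbered 0, 0 and 27. The position chr9:3404431-3404469 on the minus strand was among the highest, with 2, 1 and 6 reads, and so was chr12:3425972-3426010 on the plus strand, with 1, 1 and 6. Both lie in strong narrow blocks described above.

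The plateau of chromosome 11 did not stand out in repeated H3K4me3 reads against bins of similar H3K4me3 counts. Repeats made up 4.78%, 1.76% and 5.16% of its reads, where genome bins with 40 to 80 H3K4me3 reads had 4.78%, 2.09% and 4.83%. Those genome bins were chosen on H3K4me3 reads alone. They held 174058 H3R2me2s and 260589 combined-mark reads over 15090 bins, against 1654 and 1249 over the 41 plateau bins. Per bin the plateau was denser in both libraries, so their repeated shares are not compared at like density. In the peak at chr11:3101001-3104000 they made up 9.84%, 7.36% and 22.9%. Of 4642 positions read on the plateau in any library, 48 or 1.03% were read in all 3, against 55 of 913, or 6.02%, in that peak. The peak was denser, with 896 H3K4me3 reads over 3 kb against 2539 over the 41 kb of the plateau. Peak and plateau are thus not compared at like density either.

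The start of chromosome 9 did hold repeated positions. Its first 40 kb, set apart after the values were seen, had a read in 6 bins and held 72, 59 and 120 reads. Repeats made up 33.3%, 23.7% and 36.7% of them. In the block chr9:3035001-3037000 the shares were 39.6%, 27.3% and 41.3%, and 21 of 56 distinct positions, or 37.5%, were read in all 3 libraries. The starts of that block spanned no more than 521 bp. The most repeated of them, chr9:3035829-3035867 on the minus strand, had 4, 3 and 5 reads. In each library the starts fell in only 2 of the 20 steps of 100 bp in that block. Its levels thus average over sequence mostly without a start, and its repeated and shared positions are not compared with other blocks at like density.

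In the whole first 500 kb, 25 positions were repeated in all 3 libraries, of 4990 repeated in any. Chromosome 9 held 11 of the 25, with 8 in its first 40 kb, and chromosome 11 held 5. The next 500 kb had 13 such positions of 5494. Positions read at least once in all 3 libraries made up 1.52% of 81370 in the first and 1.29% of 97098 in the next 500 kb. With chromosome 14 and its 8 reads left aside, chromosome 9 also had the highest repeated share of any chromosome in each library, 8.32%, 7.18% and 15.9%. Most of these repeats lay outside its first 40 kb. That stretch held 24 of 79 repeated H3R2me2s reads, 14 of 97 for the combined mark and 44 of 396 for H3K4me3.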

How the data were processed

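Per the labels' protocols, chromatin was sheared by sonication of nuclei, 15 PCR cycles were used, a gel slice of 100 to 500 bp was kept, and reads came from a Genome Analyzer. The build was mm9, per the submitters' processing notes. The aligner, its rule for reads with several matches and whether copies were removed are not given in the sources used here. Each line of the deposited files is 1 mapped read of 39 bases, and the counts made from them are unscaled.

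Reads were moved 75 bp toward their 3-prime side and assigned to 1 kb bins with Python 3.11.15 and NumPy 2.4.6. A bin was called at 4 times the mean of bins with a read or more, and at a Poisson upper tail under 1e-06. The rule was run on simulated Poisson bins with planted levels, its limits set from the simulated means. Those bins had no uneven coverage or repeated sequence, so the run does not test the calls near centromeres. Intervals are Clopper-Pearson, from SciPy 1.17.1. Named blocks were the 10 with the highest summed CPM, the 3 highest and 3 lowest by each ratio to H3K4me3, ranked by the interval bound nearest to 1, and the 3 strongest of the next 500 kb. Where a rule repeated a block it is given once. Other read shifts, limits, bin sizes, windows, scalings, equal depth and removal of repeats were tried. The windows, blocks and lists were chosen with earlier results of these data known. The parts of chromosome 11 and the first 40 kb of chromosome 9 were chosen after seeing the data.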

Additional observations from a re-analysis of the deposited data

How the results depend on the processing

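No paired analysis was possible because no antibody had a second library. Of 116 values under other settings, 63 held and 53 moved beyond their counting interval or 1.5 times a count. A reversal was defined only for the ratios of first to next 500 kb, and 0 of those reversed. Changes of order in the other results were not counted. Leaving out each chromosome in turn gave 83 to 172, 111 to 199 and 165 to 268 enriched bins for H3R2me2s, the combined mark and H3K4me3, and equal height in 2.99% to 13.1% of bins. Ratios of first to next 500 kb ran over 0.687 to 0.913, 0.681 to 0.927 and 0.682 to 0.952, lowest without chromosome 11 and highest without chromosome 4. Repeated shares ran over 5.33% to 5.55%, 3.03% to 3.31% and 7.58% to 8.18%.

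Without chromosome 11 the values were 83, 111 and 165 bins, equal height in 2.99%, ratios of 0.687, 0.681 and 0.682 and 7.65% H3K4me3 repeats. Without its leading stretch, chosen after seeing the data, there were 108 H3R2me2s bins, equal height in 2.43% and ratios of 0.740, 0.765 and 0.769. In the first 250 kb there were 96, 97 and 119 bins, equal height in 26.4%, ratios of 0.597, 0.533 and 0.533 and 7.51% H3K4me3 repeats. In the first 1 Mb there were 309, 366 and 537 bins, equal height in 7.5%, ratios of 0.901, 0.887 and 0.892 and 7.61% H3K4me3 repeats. Against the 500 kb after the next the ratios were 0.870 for the combined mark and 0.883 for H3K4me3. At equal depth H3K4me3 repeats were 4.33%. A limit of 8 times the mean called 112 H3R2me2s bins, 500 bp bins gave 443 for H3K4me3, and 2 kb bins gave 106, 118 and 146. Equal height was met in 4.40% of bins at the tighter tolerance and in 31.5% at the wider one. The mean level per kb of blocks, 3.93, 6.81 and 7.83 CPM, became 3.77, 6.45 and 7.13 with 1 read per position, 3.62, 6.21 and 7.18 at 2 times the mean and 5.02, 9.10 and 10.1 at 8 times. It was 6.69 and 7.70 for the combined mark and H3K4me3 with reads moved 150 bp, and 11.6, 26.1 and 36.5 as multiples of background. The construction of a window, limit or bin size changes which bases are counted, and the cause of the other shifts was not tested.

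No difference has a replicate check. How alignment treated repeated sequence was not tested, and no input library was analysed here, so levels are not set against unprecipitated DNA. Blocks with few reads have wide intervals, and low coverage near the centromere limits what can be called there.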

Other observations

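Chromosome X was outside the comparison. Its first 500 kb after 3000001 held 0 H3R2me2s reads, 1 of the combined mark and 4 H3K4me3 reads, and the next 500 kb held 0, 0 and 2, with 0 enriched bins.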
